A study of Mus musculus with 2 samples.

Results

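Ductal epithelial genes were examined in Sox9+EpCAM- hepatocytes of the injured mouse liver. They are 9 genes, Spp1, Epcam, Bicc1, Cftr, Slc4a2, Pkhd1, Pkd2, Grhl2 and Aqp1, among 30153 gene names on the array, and all 9 were found through 12 probes. These genes were selected on their differences between the 2 arrays described here, so their values are a description and no test was made. The MH array holds RNA of mature hepatocytes (MHs) from normal livers of Sox9-EGFP mice, in which the enhanced green fluorescent protein marks cells expressing Sox9. MHs were collected by low-speed centrifugation and a Percoll gradient. The Sox9+EpCAM- array holds RNA of GFP+EpCAM- cells obtained by fluorescence activated cell sorting (FACS) from the injured liver of mice of this strain that received DDC, a compound that injures bile ducts. Both samples are labelled male. The age and the number of mice behind each array are not given in the sources used here. Lengths of DDC feeding are stated for several experiments of the study, without saying which holds for the array, and are not used here. Diet and isolation differ together between the arrays and cannot be told apart.

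Bile leaves the liver through ducts lined by cholangiocytes, which share an embryonic precursor with hepatocytes. Cholangiocytes modify bile by secreting chloride and bicarbonate, which water follows, and they sense its flow with a primary cilium. In chronic injury some hepatocytes begin to express Sox9 and other ductal genes while keeping hepatocyte genes. The 9 genes cover these functions: a secreted matrix protein and a surface adhesion molecule (Spp1 and Epcam), proteins of the cilium and of cystic disease (Bicc1, Pkd2 and Pkhd1), channels and transporters (Cftr, Slc4a2 and Aqp1) and a transcription factor of epithelia (Grhl2).

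Each group has 1 array, so no value has a replicate error. Leaving out control spots, 27523 of 43020 spots passed the background flag in the MH sample and 32158 in the other, and 0 were saturated. The lowest such signal was 27.8 for MHs and 18.4 for Sox9+EpCAM- cells. The sex label of the MH sample did not match its array: both probes of Xist were well above background there and neither was on the Sox9+EpCAM- array, while of 5 probes of 4 Y-linked genes 0 were detected in MHs and 4 in Sox9+EpCAM- cells. The part of sex in the differences below was not tested. Sox9 itself has 10 spots of 1 probe. Its intensity ran from 6.75 to 14.8 in MHs, with 0 spots well above background, and from 51.2 to 74.6 in Sox9+EpCAM- cells, with all 10 above it.

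The sequences of 4 of the probes are shown because the genes they read went different ways. They are given 5′ to 3′ as the array design has them, with their mm9 positions, and each has at least 1 reading frame without an inner stop codon.
Spp1, higher, chr5:104868502-104868561, plus strand: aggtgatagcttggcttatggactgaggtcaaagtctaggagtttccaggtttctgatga
Epcam, higher, chr17:88048972-88049800, plus strand: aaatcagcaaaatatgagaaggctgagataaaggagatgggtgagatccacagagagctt
Cftr, lower, chr6:18270974-18271033, plus strand: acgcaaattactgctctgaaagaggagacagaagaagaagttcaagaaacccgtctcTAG
Grhl2, lower, chr15:37239426-37239485, plus strand: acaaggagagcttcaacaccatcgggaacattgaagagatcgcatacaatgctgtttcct
The capitals in the Cftr probe mark a stop codon in the frame that is open from its first base. The Epcam probe is 60 bases long but spans 829 bases of the genome, so it joins parts on either side of a gap of 769 bases. For 0 of the 12 probes were 20 bases in a row found in any probe that names another gene. Where these probes lie within exons, coding or not, is not given in the files.

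All 9 genes were measured well above background in both samples by their brightest probe, here the one with the highest mean of the scaled log2 values of both arrays. The level of one probe is not set against that of another. Differences are log2 intensities, each relative to the 75th percentile of its array, as Sox9+EpCAM- minus MH. That percentile was 741 for MHs and 1110 for Sox9+EpCAM- cells, so a gene of equal intensity on both arrays has a negative difference. Of the 9 genes, 4 were higher in Sox9+EpCAM- cells by 4-fold or more, namely Spp1, Bicc1, Epcam and Pkd2, beside 5.98% of 21877 genes with a difference. At least 4-fold lower were 0 of the 9 genes by the brightest probe, beside 5.96% of the same genes. With the probe of highest mean intensity in place of mean log2 value, Grhl2 was lower by more than 4-fold and this count was 1. Since the comparison itself was used to choose the genes, nothing is read from these shares. By the brightest probe the other 5 genes stayed within 4-fold, with Slc4a2 and Pkhd1 higher and Cftr, Grhl2 and Aqp1 lower. The median over the 9 genes was 0.80 and that over all genes with a difference was -0.12.

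**Figure D1:**
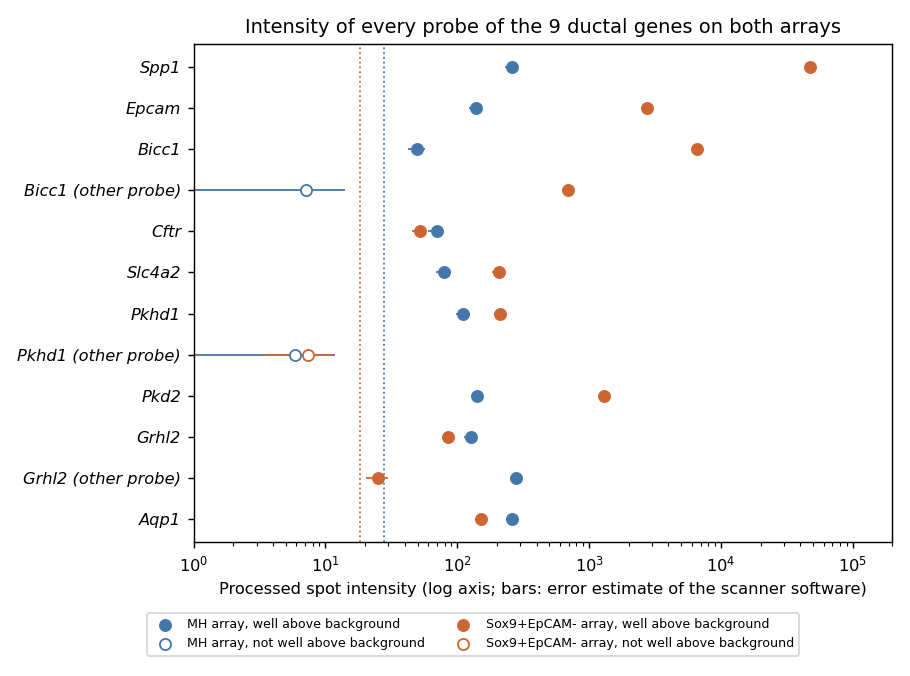
Processed spot intensity on a log axis for each of the 12 probes on the MH array and the Sox9+EpCAM- array, with bars for the error estimate of the scanner software (bars that reach below 1 leave the axis) and dotted lines at the lowest signal well above background of each array. Spp1 lies at 258 and 47000, while the Cftr, Grhl2 and Aqp1 points of the Sox9+EpCAM- array lie to the left of those of the MH array.

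Spp1, which encodes the secreted matrix protein osteopontin, showed the largest difference of the 9 genes. Its intensity was 258 ± 26.4 in MHs and 47000 ± 4700 in Sox9+EpCAM- cells, where ± is the error that the scanner software estimates for a spot. The log2 difference was 6.93 with a software error of 0.21, which is 122-fold. Of 19235 genes above background on both arrays, 3 had a larger difference. These were Ctgf with 7.20, Adamts1 with 7.20 and Ier3 with 7.29 on the log2 scale. Genes not above background in MHs are outside this ranking, and among them Cd24a, Eln and Mgp had at least 7.54, 7.06 and 7.02. Within the ranking, the genes next below Spp1 were Bicc1 with 6.47, Fosb with 6.46, Enc1 with 6.45 and Col3a1 with 6.41. This nearness is over 2 arrays only, and that of Bicc1 depends on the processing: with normexp background correction Spp1 had 6.67 and Bicc1 5.30. By the median of all probes Spp1 had 6.93 and Bicc1 at least 5.27, since 1 Bicc1 probe gives only a lower bound. Macrophages can also express Spp1, and of the 13 leukocyte markers with a difference 12 were lower on the Sox9+EpCAM- array and 1, Cd68, was higher. Of all genes with a difference, 44.7% were higher. The methods name GFP and EpCAM for this sort, and the study gated cells on CD31 and CD45, which mark endothelial cells and leukocytes, in another sort of such livers. The part of macrophages in the Spp1 difference was not tested.

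Osteopontin binds cells through integrins and CD44. Of 10 genes of these receptors, 0 were at least 4-fold higher and 1 was at least 4-fold lower, Itga5, with -2.91. Over all genes with a difference the shares were 5.98% and 5.96%. The median log2 difference of the receptor genes was -0.43. The αv chain, Itgav, had an intensity of 2190 in MHs and 5870 in Sox9+EpCAM- cells, and its log2 difference of 0.84 was the highest of the 9 receptor genes with a difference. The 4 probes of Cd44 ran from -0.33, the value of the brightest, to 4.28, so the value for this receptor depends on the probe.

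Epcam encodes the epithelial cell adhesion molecule, the surface protein by which the sorted cells were defined as negative. Its intensity was 139 ± 15.4 in MHs and 2770 ± 277 in Sox9+EpCAM- cells, which is a log2 difference of 3.73 with a software error of 0.22. Of the 19235 genes above background on both arrays, 105 had a larger difference. The sort acts on the protein at the surface and the array reads RNA. The share of EpCAM+ cells in the sorted sample was not measured by these arrays, and its part in the difference was not tested. Beside it, the cholangiocyte keratin Krt19 had 73.1 and 146, a log2 difference of 0.42, and Krt7 had 509 and 648, a difference of -0.23. Both genes stayed within 4-fold, and their distance from Epcam was not tested. In a bulk sample, fewer cells of a type and less RNA per cell cannot be told apart.

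Bicc1 encodes an RNA-binding protein whose loss causes cystic kidneys and dilated bile ducts in mice. Its brightest probe, at chr10:70385795-70385854 on the minus strand (mm9), had 49.5 ± 7.53 in MHs and 6590 ± 659 in Sox9+EpCAM- cells. The log2 difference was 6.47 with a software error of 0.26, or 88.9-fold, and 4 genes above background on both arrays had a larger one. The MH signal is not far above the lowest measurable signal of 27.8, and the difference was 5.30 with normexp background correction. As the median of both probes it was at least 5.27, since the other probe gives only a lower bound. The other probe, 2055 bases away, had 695 in Sox9+EpCAM- cells and 7.08 in MHs, where it did not stand above background. It was at least 16.7-fold higher, a lower bound set against the lowest measurable signal of the MH array. Both probes of Bicc1 were thus higher on the Sox9+EpCAM- array. The array design names an Ensembl transcript for the brightest probe and a RefSeq transcript for the other.

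Pkd2 encodes polycystin-2, a cation channel of the primary cilium that is mutated in dominant polycystic kidney and liver disease. Its probe, at chr5:104934662-104934721 on the plus strand (mm9), had 142 ± 15.4 in MHs and 1300 ± 130 in Sox9+EpCAM- cells, which is a log2 difference of 2.61 with a software error of 0.21, or 6.11-fold. Of the 19235 genes above background on both arrays, 384 had a larger difference. Pkd1, whose product polycystin-1 forms a complex with polycystin-2, had 2970 and 2960, a log2 difference of -0.59. The difference between the 2 partners was not tested.

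Pkhd1 encodes fibrocystin, a ciliary protein of cholangiocytes and kidney tubules that is mutated in recessive polycystic disease. Its brightest probe, at chr1:20596586-20596645 on the minus strand (mm9), had 111 ± 12.9 in MHs and 212 ± 21.7 in Sox9+EpCAM- cells. The log2 difference of 0.35 had a software error of 0.22, and other processing gave values down to 0.09. The other probe lies 548725 bases away and was not well above background on either array, with 5.90 and 7.35. The array design names an Ensembl transcript for the brightest probe and a RefSeq transcript for the other. By the brightest probes, Pkhd1 had the smallest difference of the 3 cystic disease genes.

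**Figure D2:**
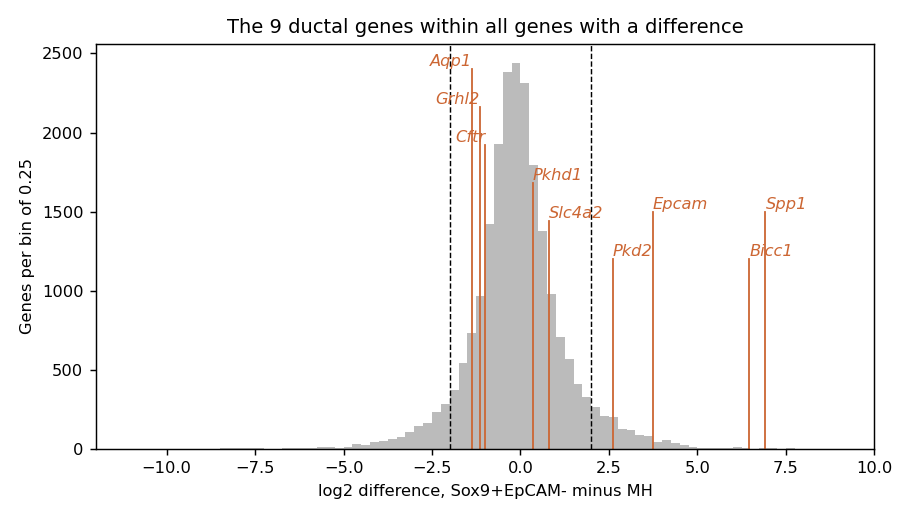
Histogram of the log2 difference, Sox9+EpCAM- minus MH, over 21877 genes in bins of 0.25, with lines for the 9 ductal genes, whose heights carry no value, and dashed lines at 4-fold. Spp1 and Bicc1 lie at the far right at 6.93 and 6.47, whereas Pkhd1, Slc4a2, Cftr, Grhl2 (by its brightest probe) and Aqp1 lie within the bulk of all genes.

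The 3 genes of bile secretion all stayed within 4-fold. Cftr encodes the chloride channel that opens in response to cyclic AMP in cholangiocytes. Its probe had 69.6 ± 9.74 in MHs and 52.1 ± 6.86 in Sox9+EpCAM- cells, against lowest measurable signals of 27.8 and 18.4. The log2 difference was -1.0 with a software error of 0.28, and between -1.20 and -0.66 under other processing. Cftr was thus measurable in both samples.

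Slc4a2 encodes anion exchanger 2, which exports bicarbonate into bile in exchange for chloride. Its probe lies at chr5:23946704-23946763 on the plus strand (mm9). Its intensity was 79.0 ± 10.5 in MHs and 206 ± 21.2 in Sox9+EpCAM- cells, which is a log2 difference of 0.80 with a software error of 0.24, or 1.74-fold, and other processing gave values down to 0.29. Of the 19235 genes above background on both arrays, 2886 had a larger difference. Aqp1 encodes a water channel of cholangiocytes that is also abundant in endothelial cells and red blood cells. Its probe lies at chr6:55298480-55298539 on the plus strand (mm9). Its intensity was 261 ± 27.0 in MHs and 151 ± 15.8 in Sox9+EpCAM- cells, which is a log2 difference of -1.37 with a software error of 0.21, and 2029 genes had a smaller one. Beside it, all 10 endothelial markers with a difference were lower on the Sox9+EpCAM- array, where 44.7% of all genes with a difference were higher. The endothelial median was -2.81 (-2.04 with normexp background correction), with summed intensities over the 11 markers of 8079 and 3762. Of the 6 erythroid markers 4 had a difference, with a median of -1.38. The part of endothelial and red blood cells in the Aqp1 difference was not tested.

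Grhl2 encodes a grainyhead-like transcription factor that drives genes of epithelial junctions. It was lower by both of its probes, by different amounts. The probe with the higher mean of scaled log2 values, at chr15:37293139-37293198 (mm9), had 127 ± 13.9 in MHs and 85.3 ± 9.33 in Sox9+EpCAM- cells, which is a log2 difference of -1.16 with a software error of 0.22. The other probe, 53713 bases away and printed above, had 279 ± 28.5 and 25.1 ± 4.64, a log2 difference of -4.06 with a software error of 0.30. This probe has the higher mean intensity, and its signal in Sox9+EpCAM- cells lies near the lowest measurable signal of 18.4. The 2 probes differ by 2.90 on the log2 scale with a combined software error of 0.38. The median of both probes, -2.61, would put Grhl2 past 4-fold lower.

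Relatives of Grhl2 and genes of the epithelial surface were read beside it. Its relative Grhl1 had 6.64 in MHs, a signal not above background, and 537 in Sox9+EpCAM- cells, at least 12.9-fold higher. Grhl3 was above background on neither array. Among genes of junctions, Cldn4 had 167 and 4000, a log2 difference of 4.0, and the E-cadherin gene Cdh1 had 537 and 2816, a difference of 1.81. Rab25, a GTPase of epithelial membrane traffic, had 61.2 and 24.1, a difference of -1.93. Of the 19 genes of ductal keratins and the epithelial surface with a difference, 13 were higher and 6 lower. Over all genes with a difference, 44.7% were higher.

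Spp1 and Pkd2 are neighbours on chromosome 5, with probes 66.2 kb apart in mm9, and Slc4a2 lies elsewhere on the same chromosome. Within 500 kb of the Spp1 probe the array names 22 genes or transcripts, of which 19 had a difference. The 17 other than Spp1 and Pkd2 ran from -2.0 to 1.95 on the log2 scale, bounds included, with a median of -0.36. Among them 1 was at least 4-fold lower, Abcg3, and 0 were shown to be at least 4-fold higher. Over all genes with a difference the shares were 5.96% and 5.98%. Ibsp, which like Spp1 encodes a phosphoprotein of mineralized matrix, had 223 and 239, a difference of -0.48. Dmp1 and Mepe of the same family were above background on neither array. Sparcl1, which encodes a matrix protein related to SPARC, had 161 in Sox9+EpCAM- cells and a signal not above background in MHs, so that its 1.95 is a lower bound and whether it passes 4-fold is not settled. These neighbours were examined after their values were seen.

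**Figure D3:**
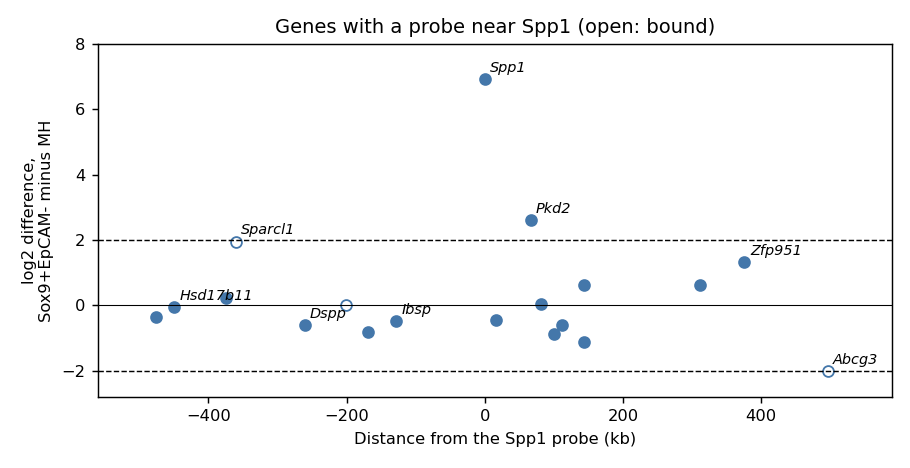
log2 difference, Sox9+EpCAM- minus MH, of 19 genes or transcripts with a probe within 500 kb of the Spp1 probe, against the distance in kb, with open points for bounds and dashed lines at 4-fold. Spp1 at 6.93 and Pkd2 at 2.61 are the points above the upper dashed line, and the open point just below it is the lower bound of Sparcl1.

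Promoter windows of 250 bases before to 50 after the start were read from RefSeq (GRCm38.p6) for 7 of the 9 genes, in 9 windows. They were searched on both strands for the motifs AACCNGTT of grainyhead-like factors, ACAANG of Sox factors and TATAAA, the TATA box. AACCNGTT was in none of the 9 windows and in 2.09% of 32851 windows of all genes. ACAANG was in both windows of Spp1 and in 1 of Slc4a2, and in 41.2% of all windows. TATAAA was in 1 window of Spp1 and in 13.6% of all windows. The 250 bases before 1 start of Spp1 hold both ACAANG and TATAAA, and are shown with the matches in capitals because Spp1 had the largest difference.
Spp1, chr5:104434861-104435110, plus strand (GRCm38.p6): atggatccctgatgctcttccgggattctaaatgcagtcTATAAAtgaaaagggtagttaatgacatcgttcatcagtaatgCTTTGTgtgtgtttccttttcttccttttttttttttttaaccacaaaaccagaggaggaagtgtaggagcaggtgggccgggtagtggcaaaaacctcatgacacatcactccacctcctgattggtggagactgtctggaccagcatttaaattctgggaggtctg
The 2 matches do not overlap and begin at -211 (TATAAA) and -168 (ACAANG) relative to the start. CTTTGT is ACAANG read on the other strand. A match of letters says nothing of binding or of a working TATA box.

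**Figure D4:**
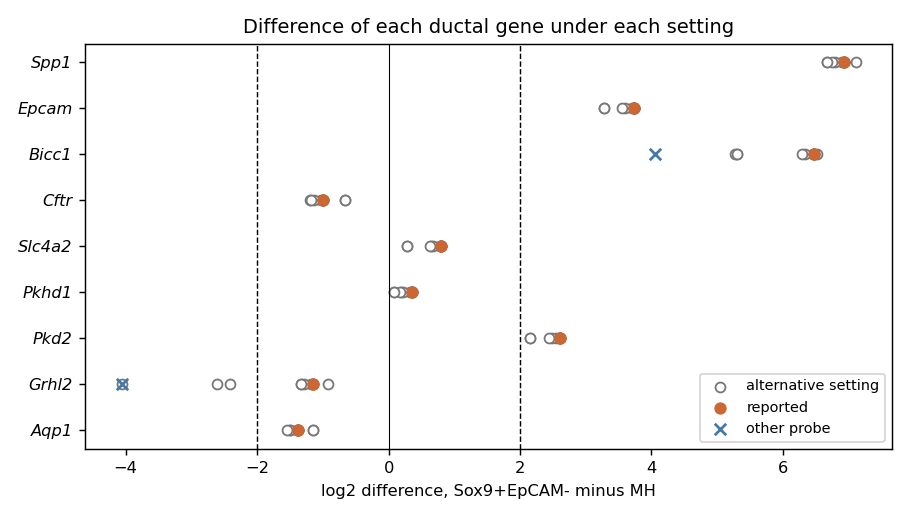
log2 difference, Sox9+EpCAM- minus MH, of each of the 9 genes as reported (filled points), under each alternative setting (open points) and by the other probe (crosses, a lower bound for Bicc1), with dashed lines at 4-fold. No gene crosses 0 in any setting shown, Bicc1 runs from 4.06 to 6.52 and Grhl2 from -4.06 to -0.92. The open Bicc1 point at 5.27, the median of its probes, is also a lower bound.

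The wider ductal gene lists also held genes that were higher and genes that were not. To set beside the counts of these lists, 5.98% of all genes with a difference were at least 4-fold higher and 5.96% at least 4-fold lower. Of 18 genes of the primary cilium and cystic disease, 16 had a difference, 5 were at least 4-fold higher and 0 at least 4-fold lower. Among them were Arl13b with 2.5, Tmem67 with 2.19 and Mks1 with 2.13, which all encode proteins of the cilium or its base, and Nek8, a kinase of the cilium, with at least 4.35 on the log2 scale. The probes of Arl13b ran from 1.27 to 2.5, so its value depends on the probe. The median over the 16 genes was 0.49. Anks3, whose product binds that of Bicc1, had 639 and 1550, a difference of 0.70, and Anks6, which also binds it, was above background on neither array.

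Of 17 genes of bile secretion and water transport, 16 had a difference, 0 were at least 4-fold higher and 2 at least 4-fold lower, with a median of -0.06. The lower genes were Slc10a2, the bile acid uptake transporter of cholangiocytes, with 5070 and 1820 and a difference of -2.06, and Vipr1, a receptor for vasoactive intestinal peptide, with at most -2.90. Sctr, the secretin receptor, had 235 and 354, a difference of 0.01. The range of this list, -2.90 to 1.30, holds Cftr, Slc4a2 and Aqp1, the ductal genes of like function.

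Of 16 ductal and epithelial transcription factors, 15 were on the array under these names, 13 had a difference, 5 were at least 4-fold higher and 0 at least 4-fold lower. The median over the 13 genes was 0.53, with 0.06 over genes above background on both arrays and 1.70 without the bound. Sox4 had 157 and 3070, a difference of 3.71, and Ehf had 100 and 1510, a difference of 3.33. Hes1, a target of Notch, was higher by at least 4.29, Grhl1 by at least 3.69 and Elf3 by at least 2.71 on the log2 scale. Of 20 genes of ductal keratins and the epithelial surface, 19 had a difference, 5 were at least 4-fold higher and 0 at least 4-fold lower, with a median of 0.42. These were Cldn4 with 4.0, Krt8 with 2.16, and Cd24a, Cldn6 and Muc1 with at least 7.54, 4.51 and 2.84.

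**Figure D5:**
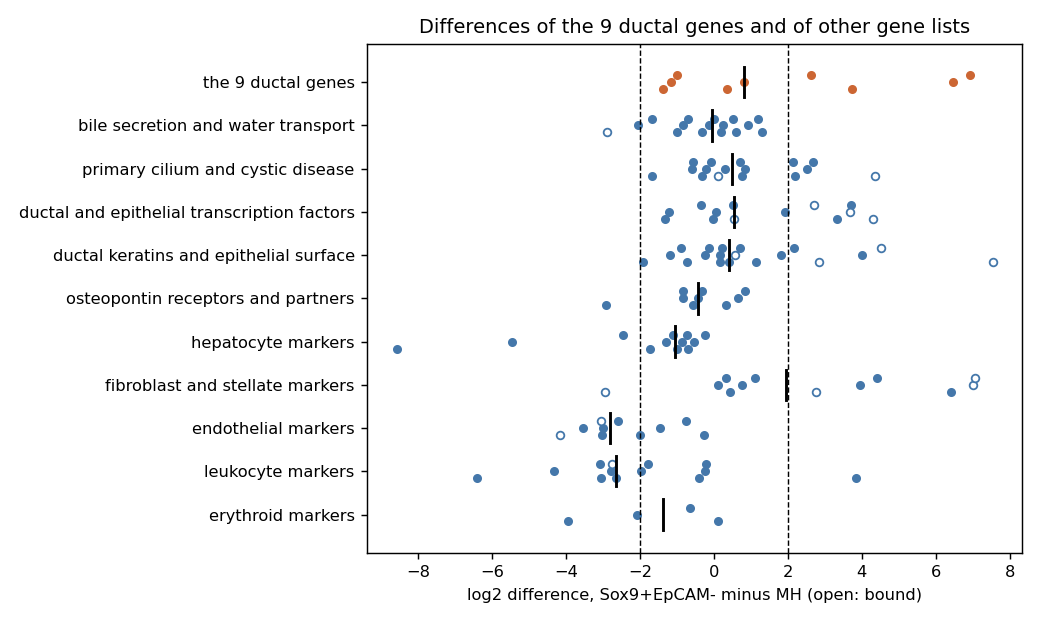
log2 difference, Sox9+EpCAM- minus MH, of each gene of the 9 ductal genes and of 10 other lists, with a black bar for the median, open points for bounds and dashed lines at 4-fold. The 9 ductal genes range from -1.37 to 6.93, and the list of bile secretion and water transport has no point above 2.

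Markers of other cells that the samples could hold were read beside these genes. Of all genes with a difference, 44.7% were higher, with 5.98% at least 4-fold higher and 5.96% at least 4-fold lower. All 12 hepatocyte markers were lower, with a median of -1.06 (-0.50 with quantile normalization), and 3 of them by at least 4-fold. These were the cytochrome P450 genes Cyp3a11, with 85800 in MHs and 337 in Sox9+EpCAM- cells and a log2 difference of -8.58, and Cyp2e1, with -5.47, and the tyrosine aminotransferase gene Tat, with -2.46. The albumin gene Alb had 207000 and 170000, a difference of -0.87, and Hnf4a had 4990 and 6360, a difference of -0.23. Of 13 fibroblast and stellate cell markers 12 had a difference, with a median of 1.94 and summed intensities of 9568 and 61506. That median was 1.09 with normexp background correction, 0.94 over genes above background on both arrays and 2.53 without the bound. Of the 12 markers 11 were higher, 6 of them by at least 4-fold. Col3a1 had 6.41, Col1a1 4.41 and Col1a2 3.95, and Eln, Mgp and Lum had at least 7.06, 7.02 and 2.77. The bounds of Eln and Mgp lie above the 6.93 of Spp1. The stellate cell marker Lrat was at least 4-fold lower, with 94.6 in MHs and 3.74 in Sox9+EpCAM- cells and at most -2.95 on the log2 scale, and Pdgfrb was above background on neither array. Of 14 leukocyte markers 13 had a difference, with a median of -2.64 (-1.62 with normexp background correction) and summed intensities of 33713 and 18136. The median of the fibroblast list had the same sign as the values of Spp1, Epcam, Bicc1 and Pkd2, and its part in their differences was not tested.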

How the data were processed

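The authors deposited, for each of the 2 arrays, the spot intensity written by Feature Extraction 10.7.3.1 after background subtraction and detrending, without normalization between arrays, with its error, flags and mean and background intensity. They also deposited a table of ratio values, which a comparison showed to be this intensity over the median of its array. How the study scaled the arrays is not given in the sources used here. After removal of 276 spots with an outlier mark, the 75th percentile of the array was subtracted from each intensity on the log2 scale and spots of a probe were averaged. The probe with the highest mean of these log2 values over both arrays stood for its gene. Where a probe missed the background flag on 1 array, the larger of its signal and the lowest flagged signal was taken, giving a bound, and no difference was formed if the sign turned. Members, lists and named genes (the 9 genes, those nearest to Spp1 in difference, Sox9, and genes of each list at least 4-fold different) were chosen with earlier results of these data known, and other genes were named with their values in view. The number of arrays limits the precision, and the spread between arrays or mice cannot be estimated. Within an array, for probes with at least 8 spots, the median SD between spots of a probe was 0.08 on the log2 scale on each array. The procedure was run on a copy of the MH array with known changes put in. That run checks the calculation only, since it holds no real variation between arrays, mice or isolations. Python 3.11.15, pandas 2.3.3, numpy 2.4.6, and limma 3.58.1 in R 4.3.3 (normexp, offset 50) were used. Alternatives were other scalings, background corrections, probes, bounds and fold thresholds. Some items of the lists and of the motif search are not reported here.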

Additional observations from a re-analysis of the deposited data

How the results depend on the processing

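Under the alternatives, none of the 9 genes changed sign, and Spp1, Epcam, Bicc1 and Pkd2 stayed at least 4-fold higher (Pkd2 was below the threshold of 10-fold). Spp1, Epcam, Cftr, Slc4a2, Pkhd1, Pkd2 and Aqp1 moved by less than 1.5-fold. With normexp background correction and its offset the log2 difference was 5.30 for Bicc1, the list medians were 1.09 for the fibroblast, -2.04 for the endothelial and -1.62 for the leukocyte list, and 612 genes were higher and 660 lower against 1309 and 1304 reported. The correction also made the other probe of Grhl2 the brightest, which gave -2.42 and 1 of the 9 genes at least 4-fold lower. With the reported probes kept, chosen after seeing the data, normexp gave -0.92 for Grhl2 and 0 of the 9 genes lower, the same 5.30, 1.09, -2.04 and -1.62, and 596 genes higher and 650 lower. The median of all probes gave at least 5.27 for Bicc1 and -2.61 for Grhl2, again 1 of the 9 genes lower. The other probe, chosen after seeing the data, gave at least 4.06 for Bicc1 and -4.06 for Grhl2. The probe with the highest mean intensity in place of mean log2 value, also chosen after seeing the data, gave -4.06 for Grhl2 and 1 of the 9 genes lower, and left the other 8 genes as reported. Without the bound the medians were 1.70 for the transcription factor list (0.53 reported) and 2.53 for the fibroblast list (1.94 reported), and with only genes above background on both arrays they were 0.06 and 0.94 and 758 genes were higher. A threshold of 2-fold gave 3 of the 9 genes lower, and 3319 genes higher and 3918 lower; 10-fold gave 363 and 344. The deposited table moved the median of all genes from -0.12 to -0.31 and Gapdh scaling to -0.26. Except where the construction gives it, the cause was not tested. Signal over background limits Cftr and the other probes of Bicc1, Pkhd1 and Grhl2, and so the -4.06 and -2.61 for Grhl2. Neither a slide block nor the omission of a replicate could be run. No paired analysis was possible because the labels give 1 array for each group.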

Other observations

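Several genes of the ductal lists had probes that gave different values, noticed after their values were seen. The probes of Krt8 ran from 2.16 to 5.42 on the log2 scale, those of Sox4 from 1.29 to 5.02 and those of Spint1, a protease inhibitor of epithelia, from 0.17 to 2.98. The probes of Ehf, in contrast, gave 3.33 and 3.33, and those of Cldn4 ran from 3.27 to 4.0.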
